A study of Mus musculus with 10 samples.

Results

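The transcripts of 10 antiviral effector genes, Ifit1, Ifit2, Ifit3, Ifit3b, Mx1, Mx2, Rsad2, Cmpk2, Isg15 and Usp18, were followed across the 5 treatments of an RNA-Seq experiment in mouse bone marrow–derived macrophages (BMDMs). The genes were chosen by name from the families of IFN-stimulated effectors, out of 55573 genes in the table, and all 10 were among the 11978 genes that reached 1 CPM (reads on a gene, scaled so that each library sums to the same total) in at least 2 libraries and were tested. BMDMs were grown with MCSF from wild-type female C57BL/6 mice and treated for 4 hours with vehicle, with 5 μg of polyU carried by the lipid DOTAP (polyU), with 1 μM of ulodesine, an inhibitor of purine nucleoside phosphorylase (PNP), plus 5 μM each of deoxyguanosine and guanosine (PNPi+dG/rG), with all of these together (PNPi+dG/rG+polyU), or with 1 ng/mL R848. Each group had 2 libraries, labelled as biological replicates. DOTAP came with polyU, and the inhibitor came with both guanosines, in every group that had them, so the parts of each mixture cannot be told apart, and R848 was used at 1 dose. Nothing in the labels says whether replicates came from separate mice, and the p-values measure the spread between these libraries.

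TLR7 is an endosomal receptor that has one site for guanosines and another for single-stranded RNA, and R848 is a synthetic agonist that occupies the guanosine site. PNP breaks down guanosine and deoxyguanosine, so its inhibition preserves them. The experiment asked how transcription in macrophages given the natural ligands overlaps with that given R848. Type I IFN acts through its receptor, the JAK1 and TYK2 kinases and transcription factors such as STAT2 and IRF9, which bind IFN-stimulated response elements (ISREs) in promoters of genes such as these. IFIT proteins bind viral RNA. Mx proteins are dynamin-like GTPases that trap viral components. Viperin, the product of Rsad2, makes a chain-terminating form of CTP, and the neighbouring gene Cmpk2 encodes a mitochondrial nucleotide kinase. Isg15 encodes a ubiquitin-like modifier, and Usp18 encodes the protease that removes it and that also restrains signalling at the type I IFN receptor.

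The genes lie in 5 places in the GRCm38 genome, given here from GENCODE M21. Ifit2 (chr19:34550694-34576419), Ifit3 (chr19:34583531-34588731), Ifit3b (chr19:34607970-34613401) and Ifit1 (chr19:34640871-34650009) stand in 1 cluster of 99316 bases, all on the plus strand, with the paralogues Ifit1bl1 and Ifit1bl2 between them on the minus strand. Mx1 (chr16:97447035-97462907, minus strand) and Mx2 (chr16:97535308-97560900, plus strand) are neighbours, and the annotation types Mx2 as a polymorphic pseudogene. Rsad2 (chr12:26442746-26456452, minus strand) and Cmpk2 (chr12:26469204-26479837, plus strand) are transcribed away from each other from starts 12752 bases apart. Isg15 lies at chr4:156199424-156200818 on the minus strand and Usp18 at chr6:121245906-121270917 on the plus strand. Ifit3 and Ifit3b are near copies: 51.2% of the 50-base windows in Ifit3 transcripts also occur in Ifit3b, so reads of the length sequenced could be split between them, and their separate values are uncertain. The share of windows found in another gene was 7.13% for Ifit1, 4.37% for Mx1 and 4.38% for Mx2, 3.96% for Isg15 and 2.81% for Usp18, and it was 0 for Ifit2, Rsad2 and Cmpk2.

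Promoter sequence from RefSeq (GRCm38.p6) was held for 7 of the 10 genes, all but Mx1, Mx2 and Usp18. The 250 bases upstream of each start were searched for the ISRE core GAAANNGAAA on both strands. Distances are from the RefSeq start, which differs from the GENCODE start given above for Ifit1, Ifit3 and Ifit3b. It was found in 5 of the 7 (Ifit1, Ifit3, Ifit3b, Rsad2 and Isg15) and in 2.98% of 32851 promoters in all, and these letters were not in the windows of Ifit2 and Cmpk2. The stretches that hold it are shown because these genes rose together with polyU. Another reason is that Ifit1 and Ifit3, which both carry 2 copies, responded differently to the other treatments. The polyU rise was not particular to them: Ifit2 rose 7.51-fold and Cmpk2 7.58-fold, and Isg15 rose 5.77-fold. The part of the core in these rises was not tested. Capitals mark the core, which reads as TTTCNNTTTC where it lies on the opposite strand. Each stretch is written 5′ to 3′ in the direction of transcription.
Ifit1 (chr19:34640761-34640837, plus strand, 128 to 52 bases upstream of the start): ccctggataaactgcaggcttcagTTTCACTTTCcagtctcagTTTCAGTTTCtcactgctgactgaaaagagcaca
Ifit3 (chr19:34583349-34583440, plus strand, 180 to 89 bases upstream of the start): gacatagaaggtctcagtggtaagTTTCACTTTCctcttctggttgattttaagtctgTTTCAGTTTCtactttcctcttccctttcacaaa
Ifit3b (chr19:34607745-34607836, plus strand, 212 to 121 bases upstream of the start): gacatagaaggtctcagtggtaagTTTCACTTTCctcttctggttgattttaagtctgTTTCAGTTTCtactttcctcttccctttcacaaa
Rsad2 (chr12:26456539-26456596, minus strand, 144 to 87 bases upstream of the start): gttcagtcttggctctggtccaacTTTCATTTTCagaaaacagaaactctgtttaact
Isg15 (chr4:156200851-156200920, minus strand, 102 to 33 bases upstream of the start): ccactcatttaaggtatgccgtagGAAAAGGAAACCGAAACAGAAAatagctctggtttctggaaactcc

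The Ifit3 and Ifit3b stretches were the same at all 92 bases. Their wider upstream windows, aligned without gaps at an offset of 32 bases, were the same at 188 of 218 bases (86.2%). The 2 copies of the core had the same letters in Ifit1 as in Ifit3 and Ifit3b, but were closer together. In Isg15 3 overlapping copies formed 1 run. The κB letters GGGNNTTTCC, searched on both strands, were in none of the 7 windows and in 1.41% of all promoters. A match of letters does not show that a factor binds there.

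The libraries held 14128128 to 38392592 reads on genes. Depth was greatest with PNPi+dG/rG and least with PNPi+dG/rG+polyU, and 3 reads corresponded to 0.0781 to 0.212 CPM. The fewest reads behind a value of the 10 genes were 46, for Mx2 in vehicle replicate 2, so all were well above that floor. All 8 macrophage markers were present in every group, at 5.36 CPM or more in each library. They moved in both directions: Mertk averaged 40.4 CPM with vehicle, 9.00 CPM with PNPi+dG/rG+polyU and 5.51 CPM with R848, while Cd14 averaged 474, 1093 and 3061 CPM. The summed level of the 8 was 15196 to 18027 CPM, most of it from Lyz2. Lymphocyte and plasmacytoid dendritic cell markers summed to 9.27 CPM at most, most of it from Cd4 outside the R848 libraries. Within that list Ccr9 rose from a mean of 0.281 CPM with vehicle to 2.40 CPM with PNPi+dG/rG+polyU and 3.27 CPM with R848, and Cd4 averaged 7.83, 5.19 and 0.843 CPM. Markers of neutrophils and dendritic cells summed to 2.39 CPM at most, with Ly6g and Xcr1 at 0 in every library. The R848 libraries stood apart in the 7 stromal and endothelial markers, of which all 7 reached 1 CPM there against 2 in vehicle. Their sums overlapped, at 152 to 163 CPM with R848 and 149 to 158 CPM with vehicle, because Kdr and Cdh5 were lower and the other 5 higher. Col1a1 was at 51.6 and 58.3 CPM with R848 and at 0.112 and 0.393 CPM with vehicle, and Pdgfrb was at 36.8 and 39.1 CPM with R848 and at 3.19 and 4.29 CPM with PNPi+dG/rG+polyU. No stromal marker was at 0 in both libraries of a group. The part of these genes, and of the macrophage and lymphocyte markers that moved, in the results below was not tested. In bulk RNA a smaller share of responding cells and less RNA per cell cannot be told apart.

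The 10 effectors together took 0.0303% and 0.0235% of the reads in the vehicle libraries and 0.493% and 0.478% in those of PNPi+dG/rG+polyU. They took 0.212% and 0.256% with polyU, 0.0325% and 0.0371% with PNPi+dG/rG, and 0.0720% and 0.0811% with R848. For 8 of the genes the group means rose in the order vehicle, PNPi+dG/rG, R848, polyU, PNPi+dG/rG+polyU. Usp18 and Ifit3b departed from that order.

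**Figure D1:**
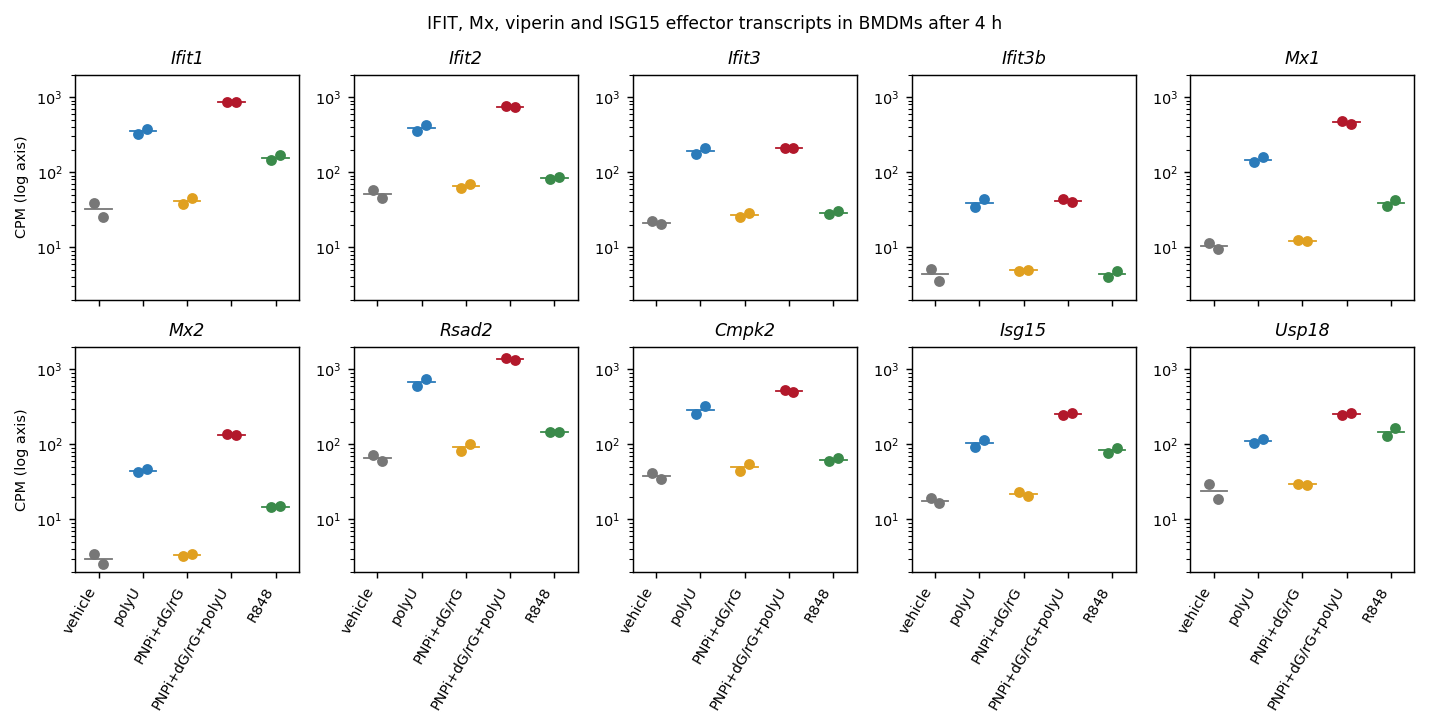
CPM of each effector gene (log axis) in the 5 groups; points are libraries, 2 a group, and lines are group means. PNPi+dG/rG+polyU was highest for all 10 genes, but its points overlap those of polyU for Ifit3 and Ifit3b, and R848 exceeded polyU only for Usp18, a difference that did not pass the test.

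Ifit1 was at 39.2 and 25.0 CPM with vehicle, 324 and 375 CPM with polyU, 37.7 and 44.7 CPM with PNPi+dG/rG, 854 and 859 CPM with PNPi+dG/rG+polyU, and 143 and 167 CPM with R848. All libraries given polyU or R848 lay above all vehicle libraries, and those of PNPi+dG/rG overlapped them. Ifit2 was at 58.6 and 45.3 CPM with vehicle, 349.6 and 429 CPM with polyU, 61.1 and 70.5 CPM with PNPi+dG/rG, 762 and 738 CPM with PNPi+dG/rG+polyU, and 81.9 and 86.4 CPM with R848. Ifit2 thus stood above Ifit1 with vehicle and below it with R848.

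Ifit3 was at 22.2 and 20.2 CPM with vehicle, 174 and 211 CPM with polyU, and 25.3 and 28.6 CPM with PNPi+dG/rG. It was at 209.5 and 209 CPM with PNPi+dG/rG+polyU, and 27.7 and 30.0 CPM with R848. Ifit3b was at 5.16 and 3.60 CPM with vehicle, 34.2 and 44.1 CPM with polyU, 4.90 and 4.92 CPM with PNPi+dG/rG, 44.0 and 39.9 CPM with PNPi+dG/rG+polyU, and 3.98 and 4.90 CPM with R848. For both genes the PNPi+dG/rG+polyU libraries fell within the range of polyU alone. With R848, Ifit3b overlapped vehicle, and Ifit3 lay just above it.

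Mx1 was at 11.4 and 9.38 CPM with vehicle, 136 and 159 CPM with polyU, 12.5 and 12.0 CPM with PNPi+dG/rG, 482 and 440.2 CPM with PNPi+dG/rG+polyU, and 35.9 and 42.0 CPM with R848. Mx2 was at 3.42 and 2.58 CPM with vehicle, 42.5 and 46.6 CPM with polyU, 3.23 and 3.50 CPM with PNPi+dG/rG, 137 and 133 CPM with PNPi+dG/rG+polyU, and 14.5 and 15.0 CPM with R848. The Mx genes had the widest span among the 10, and apart from vehicle and PNPi+dG/rG in Mx2 no 2 groups of either gene overlapped.

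Rsad2 was at 72.7 and 59.6 CPM with vehicle, 603 and 737 CPM with polyU, and 82.3 and 102 CPM with PNPi+dG/rG. It was at 1415 and 1347 CPM with PNPi+dG/rG+polyU, and 145.5 and 146.3 CPM with R848. Cmpk2 was at 41.3 and 34.4 CPM with vehicle, 254 and 322 CPM with polyU, 44.9 and 54.5 CPM with PNPi+dG/rG, 528 and 495 CPM with PNPi+dG/rG+polyU, and 59.3 and 65.4 CPM with R848. No 2 groups overlapped for either gene.

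Isg15 was at 19.4 and 16.3 CPM with vehicle, 93.1 and 113 CPM with polyU, 23.5 and 20.8 CPM with PNPi+dG/rG, 248 and 260.1 CPM with PNPi+dG/rG+polyU, and 77.6 and 90.3 CPM with R848. Usp18 was at 29.3 and 18.8 CPM with vehicle, 106 and 119.8 CPM with polyU, and 29.5 and 29.2 CPM with PNPi+dG/rG. It was at 246 and 259 CPM with PNPi+dG/rG+polyU, and 130.2 and 164 CPM with R848. These 2 genes of the ISG15 system had R848 levels close to or above those of polyU.

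PolyU alone raised all 10 effectors. Across the genes the rise ran from 4.79-fold for Usp18 to 15.0-fold for Mx2, and the median log2 change was 3.17, against 0.02 over all genes tested. All 10 passed an adjusted p-value of 0.05 (limma, Benjamini-Hochberg over all genes tested) and a change of 2-fold, which 3.21% of all genes tested did in this direction. The log2 changes were 3.83 ± 0.11 (SE) for Mx1 and 3.90 ± 0.12 for Mx2, 3.48 ± 0.23 for Ifit1, 3.34 ± 0.15 for Rsad2, 3.17 ± 0.09 for Ifit3 and 3.17 ± 0.17 for Ifit3b. They were 2.92 ± 0.15 for Cmpk2, 2.91 ± 0.15 for Ifit2, 2.53 ± 0.12 for Isg15 and 2.26 ± 0.23 for Usp18. The adjusted p-values of limma ranged from 4.59e-12 for Mx2 to 6.18e-04 for Usp18.

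PNPi+dG/rG without polyU did not raise any effector past the threshold. All 10 log2 changes were above 0, from 0.18 ± 0.12 (SE) for Mx2 to 0.48 ± 0.15 for Rsad2, with a median of 0.33 against 0.02 over all genes. In this comparison limma called 0 of the 10 (0.0668% of all genes tested), and 5 of them (Ifit3, Mx1, Rsad2, Cmpk2 and Isg15) had an unadjusted p-value under 0.05, as did 4.70% of all genes tested in this direction. For 6 genes both PNPi+dG/rG libraries lay above both vehicle libraries, as they did for 23.8% of all genes tested, and for Ifit1, Ifit3b, Mx2 and Usp18 the groups overlapped. Vehicle replicate 2 was the lower of the vehicle libraries for all 10 genes, and without it the median fell to 0.13.

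PNPi+dG/rG+polyU raised all 10 effectors by 9.73-fold (Ifit3b) to 45.4-fold (Mx2) over vehicle. The median log2 change was 3.85 while that of all genes was -0.22, and all 10 were called, as were 8.12% of all genes tested. Mx2 changed by 5.51 ± 0.12 (SE, log2; adjusted p = 2.17e-15, limma), Mx1 by 5.48 ± 0.11, Ifit1 by 4.77 ± 0.23 and Rsad2 by 4.39 ± 0.15. Ifit2 changed by 3.86 ± 0.15, Isg15 by 3.84 ± 0.12, Cmpk2 by 3.76 ± 0.15, Usp18 by 3.43 ± 0.23, Ifit3 by 3.30 ± 0.09 and Ifit3b by 3.28 ± 0.17. The stromal marker Pdgfrb also rose in these libraries, as given above, and its part was not tested.

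R848 divided the effectors. Usp18 rose by 2.63 ± 0.23 (SE, log2), Mx2 by 2.31 ± 0.12, Ifit1 by 2.30 ± 0.23, Isg15 by 2.23 ± 0.12, Mx1 by 1.91 ± 0.11 and Rsad2 by 1.15 ± 0.15, and these 6 passed both thresholds, as did 8.89% of all genes tested in this direction. Cmpk2 (0.72 ± 0.15), Ifit2 (0.71 ± 0.15) and Ifit3 (0.44 ± 0.09) passed the adjusted p-value but not 2-fold. Counted by p-value alone, 9 of the 10 were higher, against 19.2% of all genes tested. Ifit3b changed by 0.04, with a 95% interval of -0.33 to 0.40 on the log2 scale. The all-gene median was -0.50 in this comparison. With each library centred on its median gene, 9 of the 10 were called higher, against 15.0% of all genes on that scale, Ifit2 at 1.30, Cmpk2 at 1.32 and Ifit3 at 1.04, while Ifit3b, at 0.63, then passed the adjusted p-value (0.00457, limma) but not 2-fold. The same libraries carried the stromal transcripts described above, and their part in these values was not tested.

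**Figure D2:**
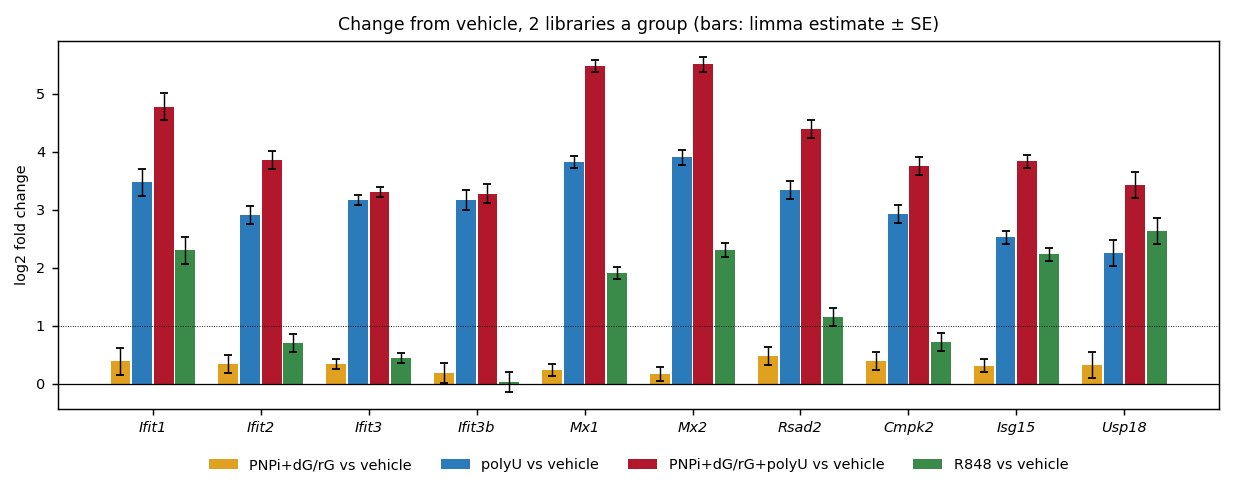
Log2 fold change from vehicle (y axis) of each effector gene (x axis) in the 4 treatments; bars are limma estimates from 2 libraries a group, error bars are SE and the dotted line marks 2-fold. PolyU bars lie between 2.26 and 3.90 for every gene, whereas R848 bars run from 0.04 for Ifit3b to 2.63 for Usp18.

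Levels of different genes were compared as CPM per kb of exon. With PNPi+dG/rG+polyU the highest means were 336 CPM per kb for Isg15, 322 for Ifit1 and 319 for Rsad2, followed by Ifit2 at 191. Cmpk2 (123 CPM per kb), Mx1 (122) and Ifit3 (120.0) lay close together, and Usp18 (90.6) and Mx2 (37.4) followed, and Ifit3b was lowest. With R848 the order was led by Isg15 (111 CPM per kb), Ifit1 (58.4) and Usp18 (52.7). Rsad2 had 33.7 CPM per kb with R848, and Mx2 (4.09) and Ifit3b (2.22) were again lowest. In vehicle Isg15 was also highest, at 23.6 CPM per kb, and Mx2 was lowest, at 0.831.

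Direct comparison of the natural ligands with R848 gave higher values of all 10 effectors with PNPi+dG/rG+polyU, and the groups overlapped in none of them, where 62.7% of all genes tested were as fully separated in this direction. The log2 difference was 3.57 ± 0.11 (SE) for Mx1, 3.25 ± 0.17 for Ifit3b, 3.24 ± 0.15 for Rsad2, 3.19 ± 0.12 for Mx2, 3.16 ± 0.15 for Ifit2, 3.04 ± 0.15 for Cmpk2 and 2.86 ± 0.09 for Ifit3. It was smaller for Ifit1 (2.47 ± 0.23), Isg15 (1.60 ± 0.12) and Usp18 (0.79 ± 0.23, adjusted p = 0.0222, limma). The Usp18 difference was 0.41 and did not pass with centred libraries (adjusted p = 0.165, limma), nor did it pass without either PNPi+dG/rG+polyU library or without R848 replicate 1. By both thresholds 9 were higher, all but Usp18, against 16.9% of all genes tested, and the median was 3.10 against 0.31 over all genes.

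R848 against polyU alone gave lower values for 9 genes and a higher one for Usp18. By both thresholds 8 were lower, against 31.6% of all genes tested, and the median log2 difference was -2.06 against -0.56 over all genes. Ifit3b fell by 3.14 and Ifit3 fell by 2.73 on the log2 scale, Ifit2 fell by 2.20 and Cmpk2 fell by 2.20, and Rsad2 was 4.57-fold lower. With centred libraries 6 were lower, without Ifit1 and Mx2, against 16.2% of all genes on that scale. The differences were -1.92 for Mx1, -1.59 for Mx2 and -1.17 for Ifit1. That for Isg15 was -0.29 (95% interval -0.55 to -0.04) and turned to 0.34 when libraries were centred on their medians. That for Usp18 was 0.38 (95% interval -0.19 to 0.94; adjusted p = 0.171, limma), and it reached 1.01 and was called with centred libraries.

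Adding PNPi+dG/rG to polyU raised 8 of the 10 effectors further and left the Ifit3 pair near the polyU level. By both thresholds 6 were higher, against 5.29% of all genes tested, and by adjusted p-value alone 8 were higher, against 15.8%. Mx1 rose by 1.65 ± 0.11 (SE, log2), Mx2 by 1.60 ± 0.12, Isg15 by 1.31 ± 0.12, Ifit1 by 1.30 ± 0.23, Usp18 by 1.17 ± 0.23 and Rsad2 by 1.05 ± 0.15. Ifit2 (0.95 ± 0.15) and Cmpk2 (0.84 ± 0.15) passed the p-value and not 2-fold, though both reached 2-fold without polyU replicate 2 (1.10 and 1.01) and with centred libraries (1.21 and 1.09). Rsad2 fell below 2-fold, at 0.90, when polyU replicate 1 was left out. Ifit3 differed by 0.13, with a 95% interval of -0.06 to 0.32, and Ifit3b by 0.11, with an interval of -0.26 to 0.48 on the log2 scale, so a further doubling of either, which is 1 on this scale, lay outside its interval. With centred libraries Ifit3 differed by 0.39 and passed the adjusted p-value (0.00325, limma), and Ifit3b differed by 0.36 and did not (0.0915). The median of all genes was -0.24 in this comparison.

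The interaction measures, on the log2 scale, how far PNPi+dG/rG changed a gene more on top of polyU than by itself. It was 1.41 ± 0.15 (SE) for Mx1 (adjusted p = 9.74e-06, limma) and 1.42 ± 0.17 for Mx2 (adjusted p = 6.13e-06), the 2 genes called, against 4.55% of all genes tested. Isg15, at 0.99 ± 0.16 (adjusted p = 5.61e-04), passed the p-value only, which 11.8% of all genes passed in this direction. Ifit1 (0.91 ± 0.33), Usp18 (0.85 ± 0.32), Ifit2 (0.60 ± 0.21), Rsad2 (0.57 ± 0.22) and Cmpk2 (0.45 ± 0.22) did not pass, with adjusted p-values of limma from 0.0560 to 0.135. Ifit3 was at -0.21 ± 0.13 and Ifit3b at -0.08 ± 0.24, and both turned positive with centred libraries, at 0.08 and 0.21. The count depended on vehicle replicate 2: without it 5 genes were called, Ifit1, Isg15 and Usp18 beside the Mx genes, and 5 were also called with centred libraries, against 6.27% of all genes on that scale. By adjusted p-value alone 8 genes passed with centred libraries, all but Ifit3 and Ifit3b, against 24.1% of all genes.

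**Figure D3:**
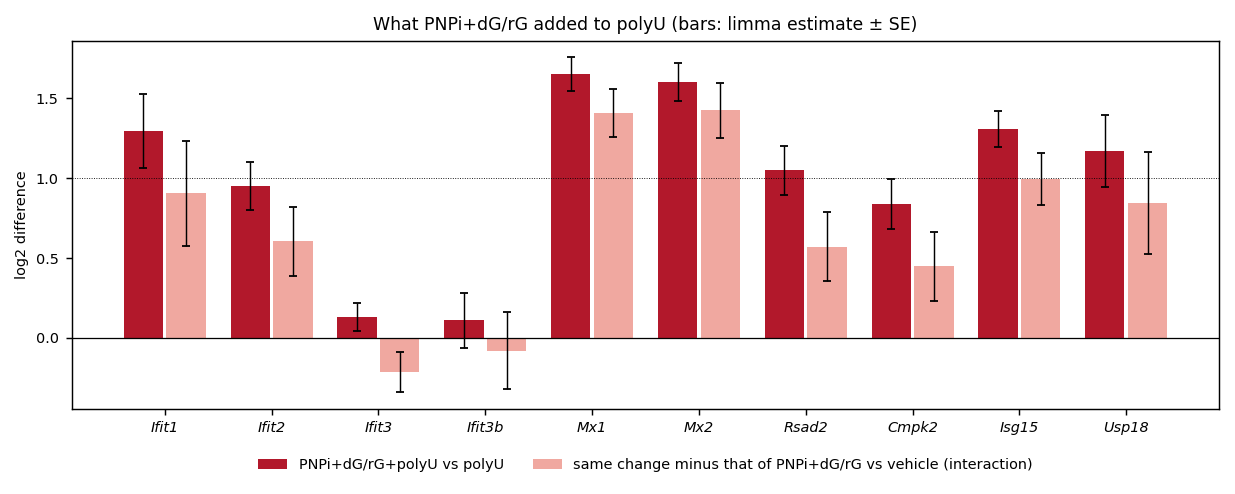
Log2 difference (y axis) between PNPi+dG/rG+polyU and polyU for each effector gene (x axis), dark bars, and the interaction, pale bars; error bars are SE, 2 libraries a group, and the dotted line marks 2-fold. Mx1 and Mx2 have the tallest bars of both kinds, and the Ifit3 and Ifit3b bars lie within 0.21 of 0, their pale bars turning positive with centred libraries.

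Ratios of 2 effectors within a library do not depend on how libraries were scaled, and 6 were computed. Ifit1 to Ifit3 was 1.77 and 1.24 in the vehicle libraries, 1.87 and 1.78 with polyU, whereas PNPi+dG/rG had ratios of 1.49 and 1.56, PNPi+dG/rG+polyU 4.07 and 4.10, R848 5.17 and 5.57. PNPi+dG/rG+polyU and R848 thus stood apart from the other 3 groups in this ratio. Ifit1 to Ifit2 was 0.669 and 0.551 with vehicle, 0.928 and 0.874 with polyU, 0.617 and 0.634 with PNPi+dG/rG, and 1.12 and 1.16 with PNPi+dG/rG+polyU. R848 gave the highest values, 1.75 and 1.93. Cmpk2 to Rsad2 was highest with vehicle (0.568 and 0.578) and PNPi+dG/rG (0.545 and 0.534), and lower with polyU (0.420 and 0.437), R848 (0.407 and 0.447) and PNPi+dG/rG+polyU (0.373 and 0.368). Replicates of these 3 ratios lay closer together than in almost every other way of pairing the 10 libraries. The exact permutation test, which used 945 such divisions, gave p = 0.00741, 0.00317 and 0.00529, adjusted p = 0.0148 for each over 6 ratios, with 0.00106 the smallest p possible.

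Usp18 to Isg15 was 1.68 and 1.81 with R848, 1.52 and 1.15 with vehicle and between these with PNPi+dG/rG. It was lower with polyU (1.13 and 1.06), and the PNPi+dG/rG+polyU libraries had the lowest values, 0.991 and 0.998 (exact permutation p = 0.0275, adjusted p = 0.0413). Mx2 to Mx1 ran from 0.259 to 0.404, with the R848 libraries highest at 0.404 and 0.358, and did not pass (exact permutation p = 0.0561, adjusted p = 0.0673). Ifit3b to Ifit3 ran from 0.144 to 0.232 and did not pass either (exact permutation p = 0.167, adjusted p = 0.167), in genes whose reads may be shared.

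**Figure D4:**
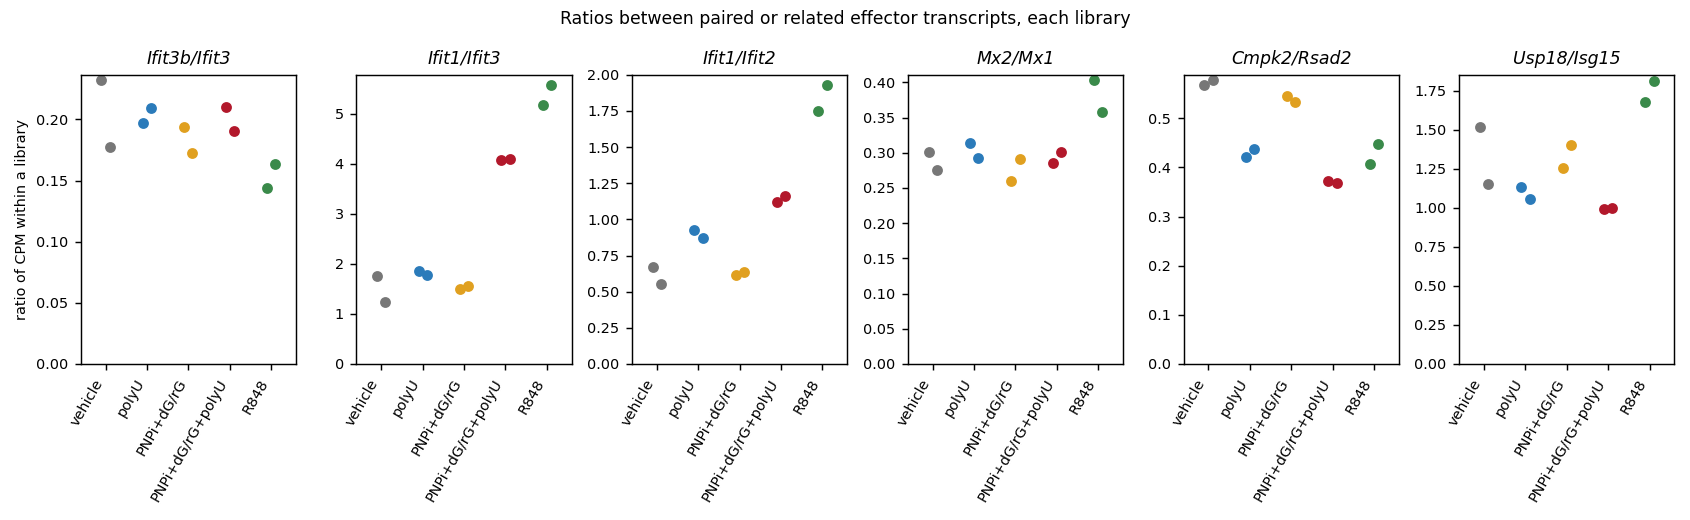
Ratio of CPM between 2 effector genes within each library (y axes from 0) in the 5 groups; points are libraries. Ifit1/Ifit3 separates PNPi+dG/rG+polyU (4.07 and 4.10) and R848 (5.17 and 5.57) from the other groups (1.24 to 1.87), while Ifit3b/Ifit3 stays between 0.144 and 0.232 throughout.

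The 5 enzymes that attach ISG15 differed among themselves. In the PNPi+dG/rG+polyU libraries 2 of 5 were called higher, Herc6, the ligase (log2 change 2.54 ± 0.11, SE), and Uba7, the activating enzyme (1.60 ± 0.06). The same 2 were called with polyU (1.19 and 1.32). Over all genes tested 8.12% and 3.21% were called higher in these comparisons. The conjugating enzyme Ube2l6 changed by 0.90 and the ligase Trim25 by 0.38 with PNPi+dG/rG+polyU, and Arih1 fell by 0.47. With R848 Herc6 rose by 1.39 ± 0.11, but Uba7 changed by -0.29 ± 0.06, Ube2l6 by 0.10 ± 0.08, Trim25 by -0.65 ± 0.05 and Arih1 by -0.19 ± 0.04. Uba7 was at 47.0 and 52.5 CPM with R848 and 58.3 and 63.0 CPM with vehicle, below it in both libraries, while Isg15 and Usp18 were raised there. Taken relative to the all-gene median of -0.50 the R848 changes turned positive for Uba7 (0.21) and Arih1 (0.31), and that of Trim25 stayed negative (-0.15).

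Among 12 genes of IFN ligands, receptors and signalling, 11 were tested. The numbers called higher were 4 for PNPi+dG/rG+polyU, 3 for polyU and 2 for R848, against 8.12%, 3.21% and 8.89% of all genes tested. Set against R848, PNPi+dG/rG+polyU gave 4 higher and 0 lower by both thresholds, against 16.9% and 3.86% of all genes. By adjusted p-value alone 7 were higher and 3 lower, as were 6451 and 2022 of the 11978 genes tested. The largest changes among those passing with PNPi+dG/rG+polyU were Irf1 (3.53) and Stat2 (2.42). With R848 the log2 changes were 1.60 for Irf1 and 0.76 for Stat2. Irf7, which drives later IFN production, changed by -0.21 with R848 and by 0.94 with PNPi+dG/rG+polyU. Relative to the all-gene medians Irf7 changed by 0.29 and 1.16. Other genes of the list were higher with R848. Ifnar1, Ifnar2 and Jak1 averaged 365, 176 and 439 CPM with R848 and 293, 94.8 and 276 CPM with PNPi+dG/rG+polyU. Those genes and Irf7 were chosen after their values were seen. Ifnb1, the gene of IFN-β, was at 1.34 and 1.06 CPM (19 and 15 reads) with PNPi+dG/rG+polyU, 0.455 and 0.174 CPM with polyU, 0 and 0.0919 CPM with R848, 0.0521 and 0 CPM with PNPi+dG/rG, and 0.0561 and 0 CPM with vehicle. Only the PNPi+dG/rG+polyU libraries and polyU replicate 1 held more than 3 reads of Ifnb1. Its difference from vehicle with PNPi+dG/rG+polyU missed the threshold (adjusted p = 0.0545, limma). Libraries with 0 reads of Ifnb1 entered the fit at the offset of 0.0001 CPM, and its SE was 3.92 (log2, polyU against vehicle). That p-value depends on the offset, so the miss does not show that Ifnb1 was unchanged.

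In a list of 20 other IFN-stimulated genes, polyU raised 13 past both thresholds, PNPi+dG/rG+polyU 17 and R848 9. All genes tested passed at 3.21%, 8.12% and 8.89%. The median log2 changes of the list were 1.31, 2.08 and 0.74, against 0.02, -0.22 and -0.50 over all genes. In the direct comparison of PNPi+dG/rG+polyU with R848, 10 passed as higher, against 16.9% of all genes. The largest changes with PNPi+dG/rG+polyU were those of Cxcl10 (6.50 ± 0.26, SE), Oasl1 (3.25 ± 0.09) and Zbp1 (3.24 ± 0.08). With R848 they were 3.40 for Cxcl10, 0.73 for Oasl1 and 2.44 for Zbp1. The median changes of the 10 effectors were 3.17, 3.85 and 1.53 in the same comparisons.

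A list of 10 NF-κB targets had another order. By both thresholds R848 raised all 10, as did PNPi+dG/rG+polyU, and polyU raised 7, against 8.89%, 8.12% and 3.21% of all genes tested. Set against R848, PNPi+dG/rG+polyU gave 0 higher and 4 lower by both thresholds, against 3.86% of all genes lower. By adjusted p-value alone 4 were higher and 5 lower, as were 6451 and 2022 of the 11978 genes tested. Cxcl1 was at 1120 and 1063 CPM with R848 and 481 and 434 CPM with PNPi+dG/rG+polyU. Il12b was at 956 and 954 CPM with R848 and 1801 and 1847 CPM with PNPi+dG/rG+polyU. Il6 was at 279 and 265 CPM with R848 and 76.4 and 87.4 CPM with PNPi+dG/rG+polyU, and at 0.0561 and 0 CPM with vehicle. Il6 was not among the 4 called lower. With 0 reads in vehicle replicate 2, its SE was 2.88 (log2, polyU against vehicle). The paralogues Ifit1bl1 and Ifit1bl2 rose with PNPi+dG/rG+polyU by 3.70 ± 0.24 and 3.27 ± 0.56 (SE, log2), and Ifit1bl2 was at 2.95 CPM or less in every library.

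The non-member genes whose log2 CPM over the 10 libraries was most like the mean of the 10 effectors were Ifi206 (r = 0.997), Stat2 (0.996), Ifi213 (0.996), Znfx1 (0.995) and Trafd1 (0.994), out of 8449 genes that averaged 10 CPM or more. The points share 5 treatments and 2 libraries each, so the correlation describes the order of the groups. Ifi206 was at 6.85 and 4.94 CPM with vehicle, 38.0 and 45.9 CPM with polyU, 70.8 and 69.6 CPM with PNPi+dG/rG+polyU, and 15.3 and 15.7 CPM with R848. Among the effectors themselves Mx1 was closest to their mean (r = 0.997) and Usp18 farthest from it (r = 0.890).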

How the data were processed

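The authors deposited 1 table of CPM, gene counts scaled to 1 total in every library, with 0.0001 added to every value. Per the study's methods, 50-base single reads of stranded mRNA libraries were mapped with STAR (version printed as 2.27a in the submitters' notes, which also list bcl2fastq 2.19.1.403), counted on Ensembl release 97 genes of GRCm38 and normalized in Partek Flow. How reads on overlapping or copied genes were counted is not given in the sources used here. Values were not corrected for length or for strongly induced genes. Removing the offset gave whole reads (within 0.1 of a read) for 100% of low values, which set the depths. No count model was fitted.

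Positions are those of GENCODE M21 on the same build. Groups came from the sample labels. limma 3.58.1 (R 4.3.3, statmod 1.5.0) was fitted to log2 of the deposited values of all 10 libraries, eBayes with trend and robust, with Benjamini-Hochberg adjustment over 11978 genes. Calls needed an adjusted p-value under 0.05 and 2-fold. The fit was tested on simulated data without shifts of whole libraries. The spread set there, beyond counting noise, was below the median residual SD of the 10 genes (0.165, log2). That test therefore does not show how the fit does at their spread. Ratios were tested by exact permutation, and 95% intervals come from limma. Alternatives were pseudocounts of 0.1 and 1, no filter, a filter on the mean, centring libraries, plain eBayes, only the groups compared, the replicate block and leaving out each library. Genes outside the 10 are named by list: the 3 with the largest change in PNPi+dG/rG+polyU among those passing, the ISG15 enzymes, Ifnb1, the paralogues and the 5 genes most alike. A gene that this rule names is not reported here. Irf7, Ifnar1, Ifnar2 and Jak1 were chosen after their values were seen. The 10 genes and the lists were chosen with earlier results of these data known.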

Additional observations from a re-analysis of the deposited data

Results flagged for a closer look

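The effect of PNPi+dG/rG differed with and without polyU for 3 effectors at an adjusted p-value under 0.05 of the interaction term of limma, which 11.8% of all genes tested passed in the same direction. Of the 3, Isg15 missed 2-fold. The log2 difference between the effects was 1.41 for Mx1 (adjusted p = 9.74e-06), 1.42 for Mx2 (adjusted p = 6.13e-06) and 0.994 for Isg15 (adjusted p = 5.61e-04). With centred libraries 8 effectors passed the p-value, against 24.1% of all genes. All 3 genes had PNPi+dG/rG+polyU libraries above both polyU libraries, while PNPi+dG/rG alone overlapped vehicle for Mx2 and lay above it for Mx1 and Isg15.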

How the results depend on the processing

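Pseudocounts, filters, plain eBayes and fits of only the groups compared changed no count of called effectors by over 1.5 times. With a replicate block the counts were the same, for example 10 higher with polyU and 2 in the interaction. Same-numbered libraries did not deviate together (r from -0.286 to 0.109 over 10 pairs of groups), so the numbers were not taken as pairs. Centring libraries on their median gene moved the median log2 difference of the effectors to 4.06 (PNPi+dG/rG+polyU vs vehicle), 2.12 (R848 vs vehicle), 1.36 (PNPi+dG/rG+polyU vs polyU), 2.71 (PNPi+dG/rG+polyU vs R848), -1.42 (R848 vs polyU) and 1.01 (interaction). It gave 1 effector called higher with R848 than polyU, Usp18, and 5 in the interaction, and it reversed Isg15 in R848 vs polyU (0.344) and Ifit3 (0.0760) and Ifit3b (0.209) in the interaction. Centring also moved the share of higher calls over all genes, from 36.2% to 48.9% for PNPi+dG/rG+polyU vs vehicle, 22.7% to 46.0% for R848 vs vehicle, 34.2% to 52.3% for PNPi+dG/rG+polyU vs polyU, 81.4% to 58.4% for PNPi+dG/rG+polyU vs R848, 19.3% to 47.8% for R848 vs polyU and 33.9% to 57.0% for the interaction. Leaving out each library gave medians from 0.133 to 0.485 for PNPi+dG/rG vs vehicle and from 0.477 to 0.953 for the interaction, with 2 to 5 called. Signs turned for Ifit3b and Mx2 in PNPi+dG/rG vs vehicle (-0.0729 to 0.449 and -0.0253 to 0.380), Ifit3b in R848 vs vehicle (-0.225 to 0.297) and in the interaction (-0.339 to 0.182), and Ifit3 and Ifit3b in PNPi+dG/rG+polyU vs polyU (-0.00918 to 0.269 and -0.0739 to 0.293). The cause was not tested. With 2 libraries a group, differences near 0 are known only within the intervals given.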
